A study of Drosophila melanogaster with 3 samples.

Results

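Divergent promoter regions are stretches of DNA that lie upstream of genes read in opposite directions, so that a single bound region sits in front of a gene on each strand. Of 2084 regions occupied by the B-H1-eGFP fusion protein in at least 2 of 3 replicates, 415 (19.9%) were of this kind. Peaks of the 3 replicates were merged where they overlapped by at least 1 bp, and a region was kept when its summit, the point of highest signal, lay 0 to 1000 bp upstream of a protein-coding transcript start site (TSS) on the minus strand and also of a protein-coding TSS on the plus strand. Another 616 regions lay upstream of a TSS on only 1 strand and are called one-directional here, and 1053 lay upstream of none. Where replicates placed the summit differently, that of the peak with the highest percentile of signal in its own list was used, so signal entered the choice of members through the summit's position.

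The data are chromatin immunoprecipitation sequencing (ChIP-seq) peaks from whole Drosophila melanogaster embryos of the strain B-H1-GFP, aged 8 to 24 hours by the source label, although another label gives a single, conflicting number of hours. The flies are transgenic for B-H1-eGFP, which carries an enhanced green fluorescent protein tag, with an insertion described as targeting B-H1, and the tag was precipitated with an antibody against GFP from sonicated chromatin. All 3 biological replicates have this genotype and age and form 1 group, with no second line and no untagged group, so comparisons were made between kinds of sequence within each replicate. Whole embryos mix all tissues, so the cells in which a region was occupied are unknown, and the control that the labels point to was not used here. The thresholded lists held 1971, 3609 and 2199 peaks on the chromosome arms in replicates 1, 2 and 3, and the number of reads behind each list is unknown. Replicate 2 stood apart with the longest list.

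B-H1, or BarH1, binds DNA through a Bar-class homeodomain and is known from the development of the eye, the leg and the external sensory organs. Divergent promoters are common in the compact fly genome, and many serve housekeeping genes, which all cells use. Factors known at fly housekeeping promoters include DREF, which binds the DNA replication-related element (DRE), the boundary protein BEAF-32, which binds a related CGATA motif, and M1BP. Developmentally regulated promoters more often carry a TATA box or GAGA repeats, the latter bound by GAGA factor.

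The 8 stretches printed here show what these gaps look like: the first 6 are from the 12 strongest members and hold no annotated exon, and the last 2 are the strongest with a complete DRE, chosen after their values were seen. Each is the plus strand of Release 6 (dm6) within 100 bp of the summit and between the TSSs. Capitals mark TATCGA (the DRE core) or CGATA on either strand and the homeodomain-type sites TAATTA and TAATTG on either strand.
Ugalt and eIF2Bbeta: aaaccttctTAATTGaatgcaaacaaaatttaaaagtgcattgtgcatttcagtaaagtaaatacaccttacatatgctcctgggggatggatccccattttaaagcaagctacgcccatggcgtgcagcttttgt
Tcs5 and CHMP2B: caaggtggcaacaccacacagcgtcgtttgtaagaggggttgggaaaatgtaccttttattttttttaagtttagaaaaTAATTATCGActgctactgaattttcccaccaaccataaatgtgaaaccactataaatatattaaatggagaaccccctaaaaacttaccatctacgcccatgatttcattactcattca
mRpS23 and CenG1A: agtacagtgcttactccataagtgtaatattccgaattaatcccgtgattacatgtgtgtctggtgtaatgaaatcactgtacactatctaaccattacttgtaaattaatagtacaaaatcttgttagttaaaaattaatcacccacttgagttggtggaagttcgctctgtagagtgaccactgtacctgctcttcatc
Art3 and mRpS10: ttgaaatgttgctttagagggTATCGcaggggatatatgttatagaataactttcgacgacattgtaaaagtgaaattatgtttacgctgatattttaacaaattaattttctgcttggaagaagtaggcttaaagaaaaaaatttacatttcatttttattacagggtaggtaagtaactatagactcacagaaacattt
CG7601 and CIA30: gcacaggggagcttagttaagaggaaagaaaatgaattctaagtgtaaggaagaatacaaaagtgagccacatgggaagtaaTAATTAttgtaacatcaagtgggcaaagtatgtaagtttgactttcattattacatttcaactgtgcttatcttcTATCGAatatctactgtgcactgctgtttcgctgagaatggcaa
CG5611 and Mtl: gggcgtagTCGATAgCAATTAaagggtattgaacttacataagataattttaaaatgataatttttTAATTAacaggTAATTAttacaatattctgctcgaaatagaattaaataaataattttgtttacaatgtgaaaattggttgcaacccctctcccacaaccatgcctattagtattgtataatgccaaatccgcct
Atat and Shc: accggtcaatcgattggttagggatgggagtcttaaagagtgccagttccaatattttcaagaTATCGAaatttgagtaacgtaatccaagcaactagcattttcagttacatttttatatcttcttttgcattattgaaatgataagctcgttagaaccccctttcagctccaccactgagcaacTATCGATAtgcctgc
fws and Lamtor3: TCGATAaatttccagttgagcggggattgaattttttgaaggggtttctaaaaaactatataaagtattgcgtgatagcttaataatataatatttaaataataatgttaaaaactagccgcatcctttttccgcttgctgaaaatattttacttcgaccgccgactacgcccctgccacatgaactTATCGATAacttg
They lie, in this order, at X:2703853-2703988, 3L:5139396-5139594, 2L:13835363-13835563, 3R:15229429-15229629, 3R:29736758-29736958, 3R:27636079-27636279, 3L:9426774-9426974 and 2L:17481031-17481230. The stretch between Tcs5 and CHMP2B has its DRE core joined to a TAATTA, that between Ugalt and eIF2Bbeta has a TAATTG and no DRE core, and that between mRpS23 and CenG1A has none of the marked motifs. Those between CG7601 and CIA30 and between CG5611 and Mtl each hold both a DRE core and a TAATTA. In the last pair of stretches the complete DRE, TATCGATA, sits near 1 end, close to a start site, away from the summit in the middle.

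The strongest members are described first, by the values for which they were chosen. Signal is the authors' value for each peak, on a scale that is not stated, and it is given here as a percentile within the replicate's thresholded list, where 100 is the strongest peak. The region at X:2703731-2704027, between Ugalt, which encodes a UDP-galactose transporter, and eIF2Bbeta, a subunit of a translation initiation factor, was at the percentiles 99.95, 100 and 100 in replicates 1, 2 and 3. It was thus the strongest peak of all in 2 replicates. Its summit lay 36 bp upstream of the Ugalt TSS and 683 bp upstream of the eIF2Bbeta TSS, in intergenic sequence. The region at 3L:5139361-5139622, between Tcs5, a gene for transfer RNA modification, and CHMP2B, which encodes a membrane-remodelling ESCRT-III subunit, was at 99.85, 99.83 and 99.82. Here the summit lay nearly midway, 99 bp from the Tcs5 TSS and 125 bp from that of CHMP2B.

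Mitochondrial ribosomal protein genes flanked 4 of the 12 strongest members, against 10 of all 415 members. The region between mRpL41 and CG8079 (2R:15217606-15217885) was at the percentiles 99.90, 99.75 and 99.91. The region between mRpS23 and CenG1A, a gene for an Arf GTPase-activating protein (2L:13835342-13835594), was at 99.52, 99.92 and 99.64. The region between Art3, an arginine methyltransferase gene, and mRpS10 (3R:15229399-15229651) was at 99.71, 99.56 and 99.37. All of these replicate values lay in the top percent of their lists, as did those of the region between mRpL23 and CG9004 (3L:2373490-2373744), at 99.22, 99.14 and 99.06. Also in the 12 were the regions between PNPase, which encodes polynucleotide phosphorylase, and the kinase gene Gprk2 (3R:31404527-31404796) and between CG7601 and CIA30, which encodes a complex I assembly factor (3R:29736710-29736959), at mean percentiles of 99.61 ± 0.30 and 99.41 ± 0.13 (SD, n = 3).

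The other members of the 12 were at means from 98.83 to 99.53. They lay between Chro, which encodes the chromodomain protein Chromator, and Ssl1, a subunit of the general factor TFIIH (3L:22878758-22879047), between CG5611 and the Rac-like GTPase gene Mtl (3R:27636033-27636314), between CG13390 and CG17294 (2L:8376760-8377019), and between Mnat9 and CG1792 (3R:31616060-31616287). The summit of the Mnat9 region lay 13 bp from the start site of that gene, in a gap of only 143 bp. At the lower end of the members with a peak in all replicates, the region between CG34288 and CG34376 was at 7.81, 17.5 and 7.49. The region between schlank and Spt6 was at 6.98, 21.7 and 19.9, and that between the mitochondrial iron transporter gene mfrn and the chaperone gene Gp93 was at 12.1, 33.3 and 29.3. Replicate 2 gave the highest percentile in each of these 3 weakest regions.

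Members were detected in all replicates about as often as bound regions in general. A peak was present in each of the 3 replicates for 285 members (68.7%), against 66.0% of all 2084 regions and 70.8% of the one-directional ones. By replicate, 364, 360 and 391 of the 415 members had a thresholded peak. For the 130 members with a peak in 2 replicates, the authors' ranked lists, which hold weaker peaks too, had a peak in the third for 104 (80%), against 150 of 180 (83.3%) of the one-directional regions. These were strong for their lists, with median ranked percentiles of 96.8, 94.3 and 96.2 where the missing replicate was 1, 2 and 3. The one-directional regions had similar medians of 97.5, 95.1 and 96.3. None of the members' peaks reached a −log10 irreproducible discovery rate (IDR) of 2, the threshold. Replicate 1 differed from the others, with a ranked peak in 27 of its 51 missing members, while replicate 2 had 54 of 55 and replicate 3 had 23 of 24. Replicate 1 was also the lowest among one-directional regions, with 66 of 91 against 28 of 31 and 56 of 58. Of the 285 members found in all replicates, 283 were overlapped by a peak of the authors' conservative series list, and so were 100 of the 130 found in 2. That list was derived from the alignments of all 3 replicates, so the overlap is no independent check. The same share over other regions is not given here, so the overlap cannot be read as a trait of members.

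B-H1-eGFP summits were several times as dense in divergent sequence as in one-directional upstream sequence. Divergent sequence makes up 1.61 Mb of the arms and one-directional sequence 13.8 Mb. Replicate 1 had 259 summits per Mb in divergent and 42.4 in one-directional sequence, replicate 2 had 307 and 80.2, and replicate 3 had 290 and 46.4. Divergent sequence was the denser in each replicate, and no replicate's one-directional density came near any divergent density. The means were 285 ± 24.6 and 56.3 ± 20.8 summits per Mb (SD, n = 3), against 11.5 ± 4.79 in sequence upstream of no TSS. The ratio was 5.40 ± 1.36 (6.10, 3.83 and 6.26 by replicate; exact sign-flip permutation test over the replicates, two-sided, p = 0.25, the smallest that 3 replicates allow).

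Divergent sequence is on average closer to a TSS than one-directional sequence, so the densities were also compared over sequence at most 200 bp upstream of the nearest TSS, a comparison added after the data were seen. There replicate 1 had 419 summits per Mb in divergent and 86.6 in one-directional sequence, replicate 2 had 484 and 172, and replicate 3 had 470 and 98.7. The ratio was then 4.84, 2.81 and 4.77, with a mean of 4.14 ± 1.15 (SD, n = 3; exact sign-flip permutation, p = 0.25). Divergent sequence was the denser in 3 of 3 replicates by either measure. The ranked lists, which are mostly weak peaks, showed a density ratio of only 1.39, 1.36 and 1.79. Of ranked peaks, 29.1%, 20.3% and 29.2% of those in divergent sequence passed into the thresholded lists in replicates 1, 2 and 3, against 6.61%, 7.18% and 8.36% in one-directional sequence. A control signal was not analysed here, so the part that chromatin accessibility has in these densities was not tested.

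**Figure D1:**
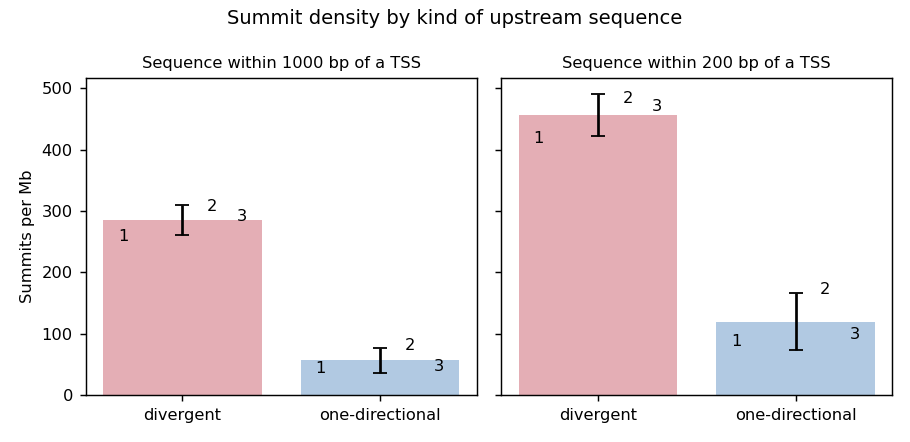
Thresholded peak summits per Mb of divergent and one-directional upstream sequence (vertical axis), over all sequence within 1000 bp of a TSS (left) and within 200 bp (right). Bars are means with SD over 3 replicates, and the digits 1 to 3 mark each replicate; divergent sequence averages 285 per Mb on the left and 457 on the right, above every one-directional value.

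Higher density did not come with a clear difference in signal. Median percentiles of members were 67.8, 72.4 and 68.3 in replicates 1, 2 and 3, and those of one-directional regions were 63.9, 75.9 and 61.1. Members were the stronger in replicates 1 and 3 and the weaker in replicate 2. The mean difference, 2.55 ± 5.53 percentile points (SD, n = 3), was smaller than its spread (exact sign-flip permutation, two-sided, p = 0.50), and it turned to −0.85 ± 7.03 among regions within 200 bp of a TSS. In the top 10% of the lists were 18.1%, 19.4% and 15.1% of members with a peak, and 16%, 26.2% and 18.6% of such one-directional regions. Regions upstream of no TSS had lower medians than members in every replicate, at 48.0, 67.5 and 50.7.

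Summits lay close to a start site and, in most short gaps, near the middle. The gap between the nearest start sites ran from 87 to 1564 bp, with a median of 334 bp and quartiles of 253 and 550.5 bp, and the summit was a median of 111 bp from the nearer TSS. Among the 177 members with a gap of at most 300 bp, the median distance of the summit from the midpoint was 22 bp. Among the 238 with longer gaps, the summit stayed near 1 TSS, at a median of 131 bp, and was 358.5 bp from the other. The nearer TSS was on the minus strand in 193 members and on the plus strand in 221, with 1 tie, so neither strand was favoured by much. Summits of the replicates differed by a median range of 33 bp in the 285 members with 3 peaks, so an offset of 22 bp is within what replicates differ by.

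**Figure D2:**
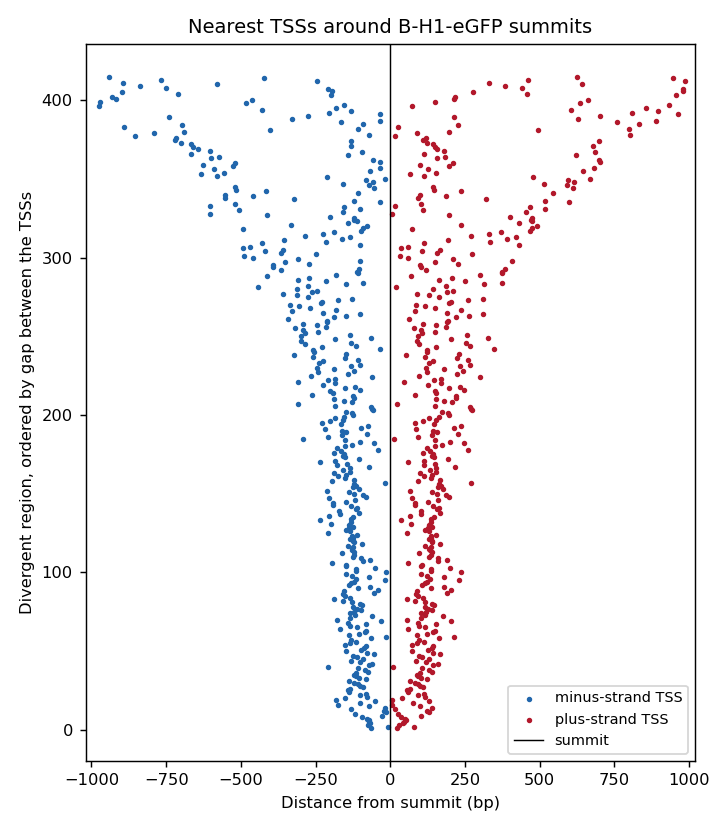
Positions of the nearest minus-strand TSS (blue, left) and plus-strand TSS (red, right) relative to the summit (black line at 0; horizontal axis in bp) for all 415 divergent regions, 1 row each, ordered from the smallest gap (87 bp, bottom) to the largest (1564 bp, top). In short gaps the start sites flank the summit evenly, and in long gaps 1 of them stays near it, at a median of 131 bp for gaps over 300 bp.

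The shortest gaps were those between CG10747 and Pyroxd1 (87 bp), wmd and levy (88 bp) and CG4049 and CG3253 (106 bp). The longest lay between CG9921 and Dsp1, which encodes an HMG-box protein (1564 bp), mtd and Tim17b1, a mitochondrial import gene (1368 bp), and CG10527 and the trehalase gene Treh (1229 bp). A short gap did not mean a weak region: that between CG10747 and Pyroxd1 was at the percentiles 87.1, 88.3 and 82.8. The limit of 1000 bp set which regions were members at the edge. Just inside it were the regions of CG10527 and Treh, Hmt4-20 and SkpA, and cnn and Golgin97, whose farther TSS lay at 985, 980 and 979 bp, and just outside were those of Sou and RIC-3, CG31174 and CG31431, and CG3434 and CG44838, at 1025, 1027 and 1045 bp.

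Members lay nearer to a start site than one-directional regions, but the rule that chose them used these distances and requires a start site on each side, so the values are given as a description with no test. The median distance from each replicate's own summit to the nearer TSS was 117, 104.5 and 109 bp in members and 242, 243 and 245 bp in one-directional regions. The mean difference was −133 ± 7.18 bp (SD, n = 3). By annotation, 290 member summits were intergenic, 62 lay in a 5′ UTR, 60 in an intron and 3 in a 3′ UTR. In 83 of the 415, some other start site lay between the summit and the start sites that defined the region.

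Occupancy of divergent gaps varied with their length. Across the arms there were 2905 pairs of neighbouring start sites facing away from each other with a gap of at most 2000 bp, and 327 of them (11.3%) held the summit of a region. Gaps of 200 to 299 bp were the most often occupied, at 127 of 521 (24.4%, exact Clopper-Pearson 95% interval 20.7% to 28.3%, counting error only). Gaps of 300 to 499 bp followed at 99 of 622 (15.9%) and gaps of 500 to 999 bp at 67 of 614 (10.9%). Gaps under 200 bp were occupied in 20 of 754 (2.65%, interval 1.63% to 4.07%) and gaps of 1000 to 2000 bp in 14 of 394 (3.55%). The rule limits these shares, since only sequence within 1000 bp of both start sites counts, which leaves 223.6 kb in the longest class. Per Mb of such sequence, 272 gaps were occupied in the class under 200 bp, 956 at 200 to 299 bp, 410 at 300 to 499 bp, 157 at 500 to 999 bp and 62.6 at 1000 to 2000 bp, so the shortest gaps stood above the 2 longest classes on that scale. The replicates' own summits gave the same order at the top, with 24.6%, 21.9% and 26.3% of the 200 to 299 bp gaps and 2.25%, 4.24% and 3.32% of the shortest.

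A short gap offers less sequence for a summit, so occupancy was also taken within a fixed 150 bp of each midpoint, whatever the gap. By that measure, replicates 1, 2 and 3 had a summit at 24.8%, 21.9% and 26.9% of the gaps of 200 to 299 bp and at 7.96%, 12.1% and 9.81% of the gaps under 200 bp. The classes still did not overlap between replicates, with means of 24.5% ± 2.51 and 9.95% ± 2.06 (SD, n = 3). Gaps of 300 to 499 bp were at 16.1% ± 0.58 and those of 500 to 999 bp at 3.75% ± 0.59. Much of the scarcity under 200 bp therefore moved with the window, from 3.27% ± 1.00 inside the gap to 9.95% around the midpoint, while the order of the shortest 3 classes stayed.

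**Figure D3:**
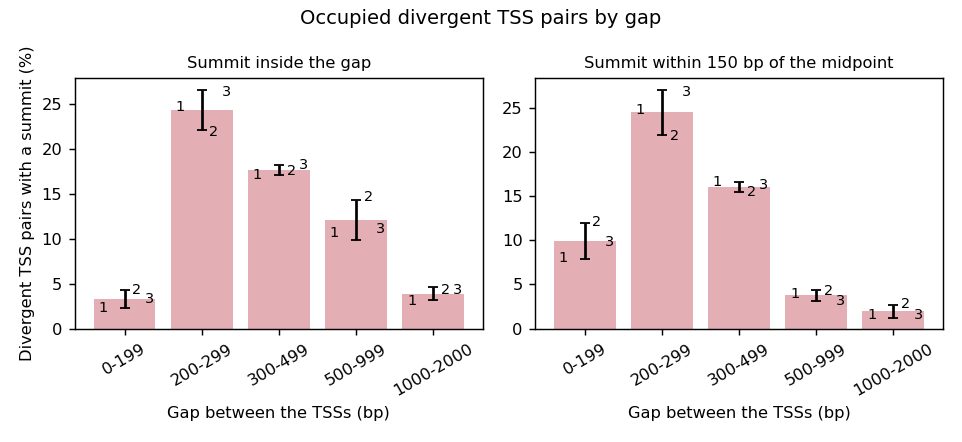
Percent of divergent pairs of start sites with a thresholded summit (vertical axis) by the gap between the start sites in bp (horizontal axis), with the summit inside the gap (left) or within 150 bp of the midpoint (right). Bars are means with SD over 3 replicates and digits mark the replicates; gaps of 200 to 299 bp stand highest in both panels, at 24.2% and 24.5%.

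Divergent gaps on the X chromosome were occupied less often than those on the large autosomes. Replicates 1, 2 and 3 had summits in 7.17%, 7.17% and 7.83% of the 460 gaps on X, against 12.1%, 13.6% and 13.3% of the 2428 gaps on chromosomes 2 and 3. The values did not overlap. One-directional sequence did not show this lower density: X held 56.7, 82.1 and 59.7 summits per Mb there and the autosomes 39.7, 80.0 and 43.9, while in divergent sequence X held 179, 198 and 210 and the autosomes 276, 330 and 308. Among arms, the share of gaps holding a region was 14.8% on 3L, 13.6% on 3R, 10.5% on 2L and 9.93% on 2R. Chromosome 4 had 0 of 17, which allows a share of up to 17.6%.

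The sequence at members was poor in G and C. In 200 bp centred on each replicate's summits, members had 33.2% G or C and one-directional regions 34.5%, a difference of −1.25 ± 0.21 percentage points that had the same sign in 3 of 3 replicates (exact sign-flip permutation, two-sided, p = 0.25). The replicates' windows lay in the same merged regions, so the shared sign rests largely on shared sequence. All 19253 promoter windows averaged 39.7%. In windows at the midpoints of divergent gaps, those holding a region had 30.5% and those without 34.9%. These gaps were not matched for length, and in gaps under 200 bp the window runs past both start sites. Around member summits the content fell to 29.1% in the lowest 20 bp bin and averaged 47.4% beyond 300 bp, against 30.7% and 43.2% in one-directional regions. The dip was thus deeper and its shoulders were higher in members. The rule requires a start site on each side of a member, but on a single side of a one-directional region. The flanks were not matched for this, so the difference in shoulders cannot be separated from the rule. Regions upstream of no TSS had a dip too, with a lowest bin between those of members and one-directional regions.

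The DRE core was more frequent at members than at one-directional regions. It was no more frequent than at the midpoints of divergent gaps without a region, which were not matched to members for length. TATCGA on either strand was held by 21.2%, 21.9% and 24.8% of member windows of 200 bp in replicates 1, 2 and 3, and by 10.3%, 9.74% and 10.2% of one-directional windows. The groups did not overlap. The difference was 12.6 ± 1.89 percentage points (SD, n = 3, exact sign-flip permutation, two-sided, p = 0.25, Benjamini-Hochberg adjusted over 13 motifs 0.27). The replicates' windows lay in the same merged regions, so they held largely the same DNA. For this and the other motifs, the spread between replicates therefore reflects where summits were placed and which regions had a peak. Of the 2578 divergent gaps without a region, 23.2% held TATCGA at the midpoint, as did 23.2% of the 327 gaps with a region, and 19.9% of all promoters held it in the 200 bp upstream of the TSS. Gaps under 200 bp were 754 of all 2905 gaps but only 20 of the 327 with a region. In so short a gap, a 200 bp window runs past both start sites. Every other value at gap midpoints shares this limit. The complete DRE, TATCGATA, which contains TATCGA on both strands, was in 8.79% ± 0.75 of member windows and 2.10% ± 0.22 of one-directional ones. At gap midpoints it was in 7.64% without a region and 7.34% with one. Within the members, the 100 that held TATCGA had a median percentile of 49.8 and the others 67.4.

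DRE cores were most frequent beside the summits, at 50 to 150 bp, and less so on them. Counted on both strands, so that a complete DRE counts as 2, members had 14.0 cores per 100 regions within 50 bp of the summit, 26.0 at 50 to 100 bp, 30.8 at 100 to 150 bp and 14.9 at 150 to 200 bp. This is the distance at which the start sites lie, at a median of 111 bp. Farther out, at 300 to 350 bp, members had 8.67, below the value at the summit. One-directional regions had 6.33, 8.93, 8.28 and 6.01 at the same distances, a flatter course. The difference in TATCGA share therefore depended on the window, at 3.68 ± 1.04 percentage points in 100 bp and 21.3 ± 0.72 in 300 bp.

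**Figure D4:**
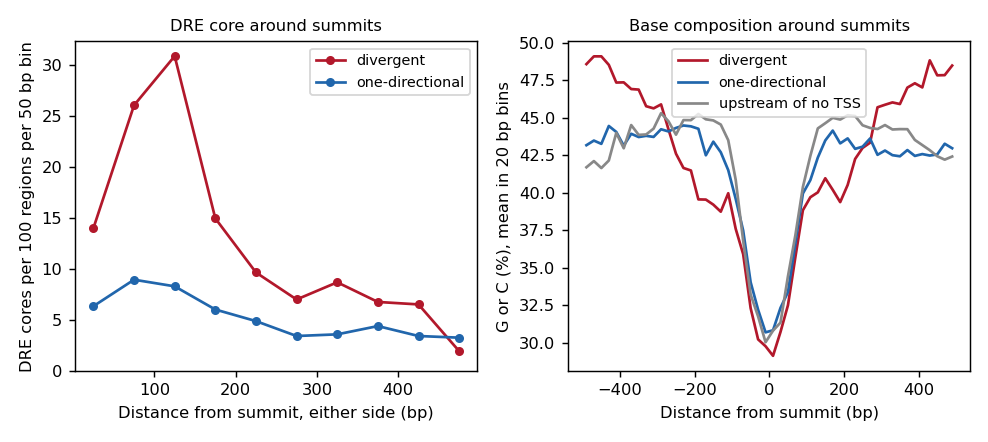
Left, DRE cores per 100 regions in 50 bp bins (vertical axis) by distance from the summit on either side (horizontal axis, bp); right, mean percent of G or C in 20 bp bins around the summit, for divergent regions (red), one-directional regions (blue) and, on the right only, regions upstream of no TSS (grey). Cores in divergent regions peak at 30.8 per 100 regions at 100 to 150 bp, and their G or C content has its lowest bin at 29.1%.

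Other promoter motifs were compared in the same 13 tests, with p = 0.25, the smallest possible, for each motif except GTATTT (exact sign-flip permutation, two-sided, p = 0.50). GAGAGA, a repeat bound by GAGA factor, was in 3.02%, 3.61% and 3.32% of member windows and in 12.4%, 12.6% and 12.01% of one-directional windows. The difference was −9.03 ± 0.34 percentage points (SD, n = 3), and −10.2 ± 0.50 within 200 bp of a TSS. Windows at gaps are centred on the midpoint and not on a summit. At gap midpoints GAGAGA was in 5.62% without a region and 4.28% with one, and all promoters had it in 11.1%. CGATA was in 37.0% ± 1.18 of member and 24.9% ± 1.48 of one-directional windows. At gap midpoints it was in 39.5% without a region and 36.7% with one. The CGATA difference fell to 7.73 ± 1.84 percentage points within 200 bp of a TSS. Every window that holds TATCGA also holds CGATA on the other strand. The CGATA difference of 12.2 percentage points thus takes in windows already counted for the DRE core, whose difference was 12.6. CGATA without TATCGA was not counted. The motif 1 core GTCACACT, part of the site of M1BP, was rare, at 2.23% ± 0.58 and 1.66% ± 0.47, and near a TSS its difference was −0.04 ± 0.46. At gap midpoints GTCACACT was in 4.34% without a region and 0.92% with one. CAGCTG was in 10.4% ± 1.82 of member windows and 6.74% ± 1.14 of one-directional ones. It was in 12.8% of gaps without a region, 7.95% of those with one and 11.9% of all promoters, so members were not high for it. The motif 6 core GTATTT was in 29.6% ± 0.96 of member and 28.5% ± 0.52 of one-directional windows. GTATTT was the higher in members in only 2 of 3 replicates, with a difference of 1.10 ± 1.30 overall and 4.03 ± 0.42 near a TSS.

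Most motifs rich in A and T were more frequent in member than in one-directional windows, and member windows were also the poorer in G and C. TATAAA was in 47.4% ± 1.30 of member windows, 39.6% ± 0.85 of one-directional windows and 33.5% of promoters. At gap midpoints it was in 38.2% without a region and 52.6% with one. The homeodomain core TAATTA was in 23.0% ± 1.00 of member and 15.96% ± 0.77 of one-directional windows, with 20.8% at the midpoints of gaps without a region and 27.8% of those with a region. TAATTG was in 19.4% ± 0.88 and 21.2% ± 0.75, so this homeodomain-type site was slightly less frequent in members. TAAACG was in 11.0% ± 0.43 and 7.94% ± 0.71, with 11.3% in gaps without a region and 9.72% in all promoters. Within 200 bp of a TSS the difference in TAATTA went from 7.08 to 2.95 ± 1.29 percentage points, that in TAAACG from 3.08 to 0.96 ± 1.79, smaller than its spread, and that in TAATTG from −1.87 to −3.86 ± 1.18. The share of these values that base composition accounts for was not tested. A pair of 6-mers that an earlier look at these peaks had found to be frequent, AGTGTA and ACACTG, were in 11.6% ± 1.23 and 14.3% ± 1.88 of member windows and in 16.3% ± 1.37 and 16.4% ± 0.83 of one-directional windows. The difference in ACACTG was −2.09 ± 1.66 overall and −4.69 ± 1.06 near a TSS. Both were most frequent in regions upstream of no TSS, at 22.8% ± 0.62 and 20.6% ± 0.43.

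**Figure D5:**
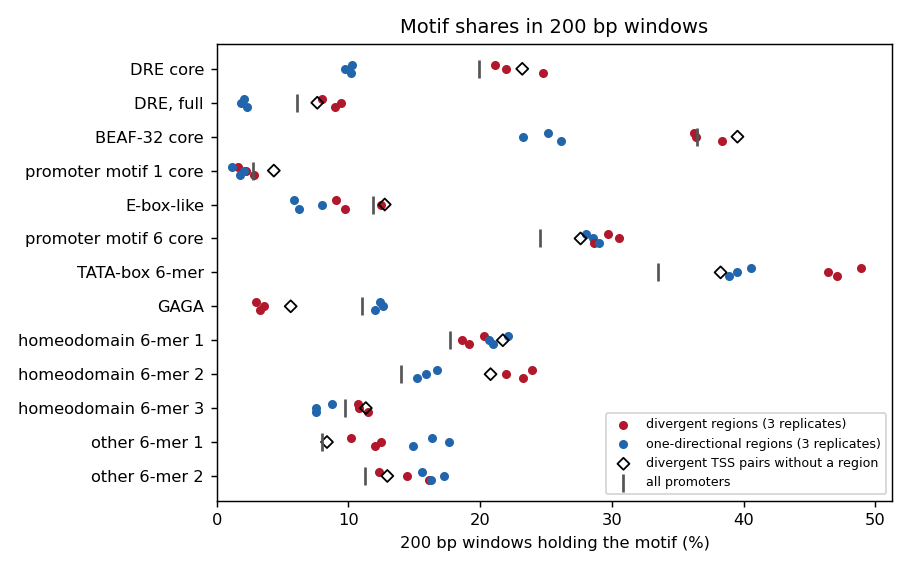
Percent of 200 bp windows holding each of 13 motifs (horizontal axis) in divergent (red) and one-directional (blue) regions, 1 point per replicate, with divergent gaps without a region (diamonds) and all promoters (bars); homeodomain row 1 is TAATTG, homeodomain row 2 is TAATTA, homeodomain row 3 is TAAACG, and the last rows are AGTGTA and then ACACTG. The DRE core in divergent regions lies around the diamond at 23.2% and above the one-directional points, and GAGA lies below all other groups.

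Members served 845 protein-coding genes, 13.6% of the 6198 genes with a start site at a divergent gap of at most 2000 bp, and each list of genes is read against that share. A gene counts as served when its start site was the nearest on its strand with the summit 0 to 1000 bp upstream of it. The lists were chosen with earlier results of these data known, so their counts are descriptions. Of the genes at divergent gaps, 22 of 60 cytosolic ribosomal protein genes (36.7%) were served, with a median percentile of 54.9 against 63.1 over all 845 genes. The strongest were RpL34b at 85.0 ± 3.04, RpS27 at 84.8 ± 4.66 and RpL32 at 84.1 ± 8.36 (SD, n = 3). Mitochondrial ribosomal protein genes were served in 10 of 59 cases (16.9%), with a median percentile of 93.2. The mitochondrial share is near the overall one, and the percentiles of its 10 served genes ran from 42.7 to 99.9.

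Of DNA repair genes, 10 of 33 (30.3%) were served, among them the checkpoint kinase gene mei-41 at 90.2 ± 3.23, Irbp, which encodes a Ku subunit, at 85.1 ± 4.09, and the excision repair gene Ercc1 at 72.4 ± 12.8. Of genes for insulator and promoter architecture proteins, 5 of 16 (31.2%) were served. They were Chro at 99.53 ± 0.06, the insulator protein gene Cp190 at 87.4 ± 4.34, pzg at 59.9 ± 32.3, M1BP at 59.4 ± 7.39 (n = 2) and BEAF-32 at 58.1 ± 16.3. Of Polycomb and trithorax group genes, 3 of 18 (16.7%), near the overall share, were served: brm, the ATPase of the SWI/SNF complex, at 98.3 ± 0.61, the histone methyltransferase gene E(z) at 90.1 ± 1.65, and Sfmbt at 28.4 ± 34.1 (n = 2). The region of brm also served Arl1, a Golgi GTPase gene, across a gap of 266 bp.

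Further lists of cellular upkeep lay on either side of the overall 13.6%. Autophagy genes were served in 6 of 16 cases (37.5%), led by Atg2 at 81.4 ± 4.49, Atg17 at 77.8 ± 12.7 and Atg18a at 73.9 ± 13.7. Genes of transfer and ribosomal RNA modification were served in 6 of 29 (20.7%), with Tcs5, Elp5, an Elongator subunit, at 98.6 ± 0.48, and the methyltransferase gene Trmt6 at 95.3 ± 1.59. RNA polymerase and general factor genes were served in 11 of 58 (19.0%), with the Mediator subunit gene MED27 at 86.3 ± 6.5 and TfIIA-L at 84.6 ± 6.06. Transfer RNA synthetase genes were served in 4 of 25 (16%), vesicle traffic genes in 13 of 83 (15.7%), oxidative phosphorylation genes in 7 of 50 (14%) and translation factor genes in 5 of 37 (13.5%). Replication and cell cycle genes were served in 6 of 47 (12.8%), proteasome genes in 3 of 30 (10%) and splicing genes in 3 of 31 (9.68%). Glycolysis had 2 of 7, Eno at 84.8 ± 3.12 and Pgi at 29.0 ± 8.42 (n = 2).

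Few genes of the tissue-specific lists stood at divergent gaps, and the counts served there were small. None of the 10 homeobox genes at such gaps was served, which allows a share of up to 30% and so includes the overall share, nor any of the 5 proneural, Notch and sensory organ genes, for which no useful limit follows. Cuticle genes had 0 of 33, which allows up to 9.09% if each gene counts as an independent case. Chemoreceptor genes had 1 of 37 (2.70%), Or88a, which encodes an odorant receptor, at 78.2 ± 12.3. Genes on either side of a gap can share a region, so the genes of a list need not be independent. The limits for homeobox and cuticle genes may therefore be too low. Whether the cuticle share lies below the overall share cannot be decided from this count. Only 11.8% of all homeobox genes and 23.7% of cuticle genes have a start site at a divergent gap, against 44.4% of all protein-coding genes. Served genes spanned a median of 2511 bp and the other genes at divergent gaps 2214 bp.

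A list gene stood on at least 1 side of 113 of the 415 members, and on both sides of 8. The same counts over all divergent gaps are not given here, so these describe members only. In 1 of these 8 were both genes in 1 list: RPA1, a subunit of the single-strand DNA binding protein, and Mcm2, a subunit of the replicative helicase, across 519 bp. Its percentiles were 58.2 in replicate 1 and 45.2 in replicate 3, with no thresholded peak in replicate 2. RpL28 and eIF1, which both act in translation, shared a region at 58.4, 76.6 and 70.5, and mRpL39 and the proteasome gene Prosbeta2 shared a region at 42.4 and 43.0 in replicates 1 and 3.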

How the data were processed

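The authors deposited narrowPeak lists per replicate, with coordinates on dm6 per the file descriptions; aligner, peak caller and read depth were not stated in the sources used here. Peak signal, a value of unstated scale that the authors deposited, was used only as a percentile within a list. The ranked lists also hold the −log10 of the global IDR as deposited by the authors. Besides its own alignments, 1 file common to all replicates went into each replicate's lists, and since its role is not stated, how far the lists are independent is unknown. In the series-wide ranked lists, 32 columns of per-sample values matched no replicate by name and were not used.

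Start sites came from Ensembl release 115 and sequence from Release 6, the same build. Each region's summit was that of its peak with the highest percentile. Printed stretches are those of the 12 strongest members, and of 2 further ones with a complete DRE, whose stretch holds no exon, with arm 2R left out. Motifs were sought on both strands in 200 bp around each replicate's own summits. These lay in the same merged regions, and in members with 3 peaks they differed by a median range of 33 bp. Values of G or C content and motifs in the replicates are therefore not independent readings of sequence. Differences were computed per replicate and tested with an exact sign-flip permutation test over the 3 replicates, two-sided (scipy 1.17.1, Python 3.11.15), whose smallest p is 0.25, so no difference could pass 0.05. The labels call the replicates biological, and p measures only the spread between them. The counting of regions was tested on simulated peaks planted at the same positions in all 3 replicates. The merging of offset peaks, the rule of 2 replicates and the choice between differing summits were not tested in this way. Alternatives were other overlap rules, limits, start sites, windows and lists, and each replicate left out.

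Named regions are the 12 members of highest mean percentile among those in all replicates and the 3 lowest, the 3 shortest and 3 longest gaps, 3 on each side of the limit, and up to 3 per gene list; pairs with list genes on both sides and further list members were named after their values were seen. The members and lists were chosen with earlier results of these data known.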

Additional observations from a re-analysis of the deposited data

Results flagged for a closer look

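Some peaks in divergent sequence pass the IDR threshold in a replicate's ranked list but are absent from its thresholded list, and so entered no region. There were 8 in replicate 1, 8 in replicate 2 and 7 in replicate 3. Over all sequence, 68, 112 and 64 peaks were absent in this way. Of thresholded peaks, 417 of 1971, 495 of 3609 and 468 of 2199 lay in divergent sequence, so such absences were not particular to it.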

How the results depend on the processing

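No paired analysis was possible because the 3 replicates form 1 group, which leaves no groups to pair by replicate number; differences between kinds of region were taken within each replicate throughout. The difference in signal percentile reversed with 1 TSS per gene (−0.38) and within 200 bp of a TSS (−0.85, added after seeing the data). Requiring all 3 replicates moved the share of gaps occupied to 7.61% and the TATCGA difference to 9.51 percentage points; the top 75% of each list moved them to 9.43% and 10.6. The TATCGA difference was 3.68 in 100 bp, 21.3 in 300 bp and 10.5 within 200 bp of a TSS. The distance difference was −81.8 bp with a limit of 500 bp and −105 bp with 1 TSS per gene. The G or C difference was −1.96, −1.53, −1.71 and −1.61 percentage points with the 500 bp limit, 1 TSS per gene, 300 bp windows and near a TSS. The cause of these changes was not tested. With 1 replicate left out, the rule still asked for peaks in 2 replicates, so a member then needed a peak in each one left. That stricter rule bears on the counts and occupied shares that follow, as does requiring all 3 replicates. Leaving out each replicate gave 310 to 340 members, density ratios of 4.97 to 6.18, percentile differences of 0.83 to 3.05, occupied shares of 8.30% to 9.33%, TATCGA differences of 9.72 to 12.03, distance differences of −137 to −124 bp and G or C differences of −1.43 to −1.19. The count of members was 285 with all 3 replicates required, 334 with the 500 bp limit and 299 with 1 TSS per gene. In the conservative list, a single list to which the rule on replicates does not apply, 527 peaks lay in divergent sequence.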
